A study of Mus musculus with 8 samples.

Results

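The 33 genes described here are type I interferon-stimulated genes, chosen by name from the genes known to be induced by interferon-alpha and interferon-beta. They are 33 of 55335 genes in the files, and each was found under its symbol. In 31 of them the mean level reached 5 CPM, counts per 1000000 of a library scaled by the trimmed mean of M values (TMM), which was the lower limit for a measured gene. Isg20 and Ifi44 were under it. Over all genes 12177 were measured.

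The CD36_KO group was CD36 KO mice and the WT group was wild-type mice, and the strain background was C57BL/6 for both. Mice of both groups received B16 cells, a mouse melanoma line, by intravenous injection. CD8 T cells were sorted from the tumours after 14 days, and total RNA was sequenced. The 8 samples are titled as 4 lanes of 1 library per genotype, so CD36_KO and WT each stand for 1 library, and lanes show technical spread only. The labels name neither the CD36 allele nor the number of animals in a library, and no difference between the libraries has a replicate check or a p-value. Per its design text, the study set CD36 KO against WT CD8 T cells from these tumours.

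The CD36_KO library held 10363391 estimated counts and the WT library 10071960, with 2497048 to 2611740 per lane. Cd36, the fatty acid receptor gene that was targeted, had 107, 86, 88 and 77 counts in the CD36_KO lanes, against 287, 299, 307 and 301 in the WT lanes. All 12 CD8 T cell markers were present in both libraries, and all 12 were at least 2-fold higher in CD36_KO (median log2 ratio 1.84). Their summed level was 1088 to 1131 CPM per lane in CD36_KO and 329 to 339 CPM in WT. All 10 melanoma markers were at least 2-fold lower in CD36_KO (median -2.26), at 1320 to 1371 CPM in CD36_KO lanes and 5471 to 5693 CPM in WT lanes. The libraries thus differed in markers of several cell types as well as in genotype, and the part of these markers in any result given here was not tested.

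Interferon-alpha and interferon-beta bind a receptor made of IFNAR1 and IFNAR2 and activate the kinases JAK1 and TYK2. These lead to the assembly of ISGF3, a complex with STAT2 and IRF9 that binds the interferon-stimulated response element (ISRE) in the promoters of target genes. The products detect viral nucleic acid, degrade RNA, stop translation or block entry and release of virus. In tumours type I interferon is known for aiding the priming of CD8 T cells, and lasting exposure has been linked with their dysfunction. Several members, among them STAT2, IRF9 and IRF7, belong to the signalling chain that induces the rest.

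Promoter sequence shows where the element stands in the members that hold it. The stretches below lie before the transcription start and are shown because their genes span the range of the results. In this set 7 hold the ISRE core and 1, Samd9l, does not. Those of Oas1a, Trim30a and Samd9l run up to the start. Those of Isg15, Ifit1, Rsad2, Bst2 and Ifit3 end at positions -28, -51, -76, -83 and -95 from it. They come from RefSeq on GRCm38.p6 and are written 5′ to 3′ on the gene's own strand, with the bases of each ISRE core match in capitals. Matches that overlap run together.
Isg15, chr4:156200846-156200925, minus strand: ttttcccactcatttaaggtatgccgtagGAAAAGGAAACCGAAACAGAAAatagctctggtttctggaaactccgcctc
Ifit1, chr19:34640759-34640838, plus strand: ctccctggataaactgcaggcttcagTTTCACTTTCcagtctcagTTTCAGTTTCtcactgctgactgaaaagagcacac
Ifit3, chr19:34583355-34583434, plus strand: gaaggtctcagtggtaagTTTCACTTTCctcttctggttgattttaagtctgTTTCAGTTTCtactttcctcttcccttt
Oas1a, chr5:120907526-120907605, minus strand: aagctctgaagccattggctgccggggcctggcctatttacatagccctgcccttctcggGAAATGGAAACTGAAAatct
Bst2, chr8:71537555-71537634, minus strand: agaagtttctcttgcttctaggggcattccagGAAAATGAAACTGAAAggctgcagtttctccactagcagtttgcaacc
Trim30a, chr7:104465194-104465273, minus strand: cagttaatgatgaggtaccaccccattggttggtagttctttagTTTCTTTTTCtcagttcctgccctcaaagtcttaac
Rsad2, chr12:26456528-26456607, minus strand: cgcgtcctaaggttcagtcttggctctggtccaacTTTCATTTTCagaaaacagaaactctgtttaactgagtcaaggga
Samd9l, chr6:3399572-3399671, minus strand: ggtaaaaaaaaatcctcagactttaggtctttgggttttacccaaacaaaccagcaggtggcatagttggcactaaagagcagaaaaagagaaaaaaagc

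The core searched was GAAANNGAAA, which reads TTTCNNTTTC from the other strand, in windows of 300 bases from 250 before to 50 after each annotated start. It was found in 13 of the 25 members with a window (52%), in 44 of 97 further genes of the interferon pathway (45.4%) and in 1079 of 27025 genes of the whole table (3.99%). Isg15 carried 3 overlapping matches, beginning 78, 72 and 66 bases before the start, while Oas1a and Bst2 each carried an overlapping pair. In Ifit1 and Ifit3 the matches stood apart and on the other strand, 104 and 85 bases before the Ifit1 start and 156 and 122 bases before the Ifit3 start. The palindrome TTCNNNGAA, the interferon-gamma-activated site (GAS), was found in 6 members (24%), against 9.55% of all genes, and it overlaps the ISRE core in Bst2 and Ifitm3.

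**Figure D1:**
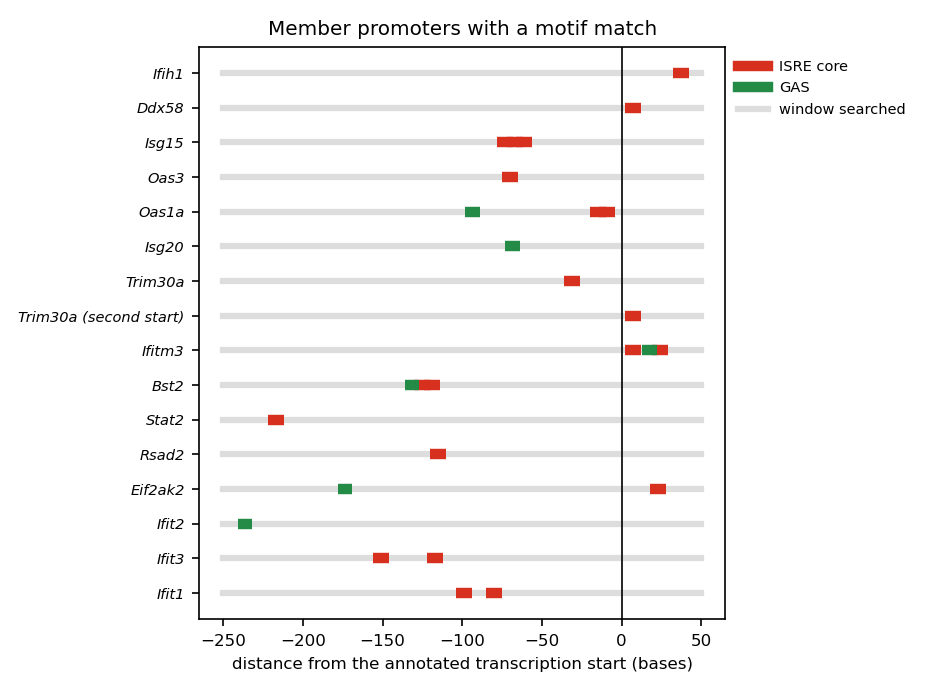
Positions of ISRE core matches (red) and GAS matches (green) along the searched windows of the members that hold a match, in bases from the annotated transcription start. Most ISRE core matches stand before the start, with those of Ifih1, Ddx58, Ifitm3, Eif2ak2 and the second Trim30a start just after it.

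As a group the interferon-stimulated genes stood slightly higher in CD36_KO than genes in general, with no shared shift by 2-fold or more. The median log2 ratio of CD36_KO over WT was 0.20 over the 31 measured members and -0.13 over all measured genes, a difference of 0.34 on the log2 scale. Only Samd9l passed the 2-fold rule upward, none passed it downward, and 30 lay between. Over all measured genes 6.50% were at least 2-fold higher and 10.8% at least 2-fold lower, each with a counting interval that excluded no change. A different number of expressing cells and a different amount of these RNAs per cell cannot be told apart in such bulk samples.

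The members ran from -0.71 for Bst2 to 1.00 for Samd9l. Their 95% counting interval lay above 0 for 16 of the 31, against 24.9% of all measured genes. It lay below 0 for Bst2, Oas1a, Rsad2 and Ifitm3, against 40.7% of all measured genes. In 8 members the 4 CD36_KO lanes all lay above the 4 WT lanes in scaled CPM (Samd9l, Zbp1, Trim30a, Parp14, Ddx58, Dtx3l, Oas3 and Oas2), against 19.6% of all genes. In Bst2, Oas1a and Ifitm3 they all lay below, against 33.3% of all genes.

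The sign of a single ratio depended on how the libraries were scaled. The median of all genes was -0.13 with TMM factors, 0.07 with total counts alone, 0.37 as log2(TPM + 1), where TPM is transcripts per 1000000 and accounts for length, and -0.75 when scaled to pan-leukocyte genes. The count scalings shift every gene by 1 constant, so they leave the distance of a member to the all-gene median unchanged by construction, but for the few genes that pass the lower limit on 1 scale only. On the TMM scale 23 of the 31 measured members lay above that median. TPM weights transcripts by length, and there the members' median stood 0.40 above that of all genes and 25 members lay above it, Usp18 and Ifitm3 having crossed. Single members moved relative to all genes between these scales, as Ddx58 did, at 0.95 above the all-gene median in TPM and 0.58 above it with TMM factors. With pan-leukocyte scaling only Samd9l (0.39) and Zbp1 (0.14) kept a positive ratio. That scale used the summed counts of Ptprc, Coro1a, Laptm5, Cd53, Lcp1, Rac2 and Cd52. Their own TMM-scaled ratios ran from -0.14 for Laptm5 to 1.28 for Ptprc, so its shift depends on the genes chosen.

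The ratios of members with and without an ISRE core in the searched window overlapped, and the difference was not tested. The 13 measured members with a match had a median log2 ratio of 0.14, from -0.71 to 0.55, and the 10 without one a median of 0.30, from -0.29 to 1.00. Isg15 had the most matches and a ratio of -0.43, while Samd9l had the highest ratio and no match. Windows for 8 members, among them Zbp1 and Parp14, were not used here.

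**Figure D2:**
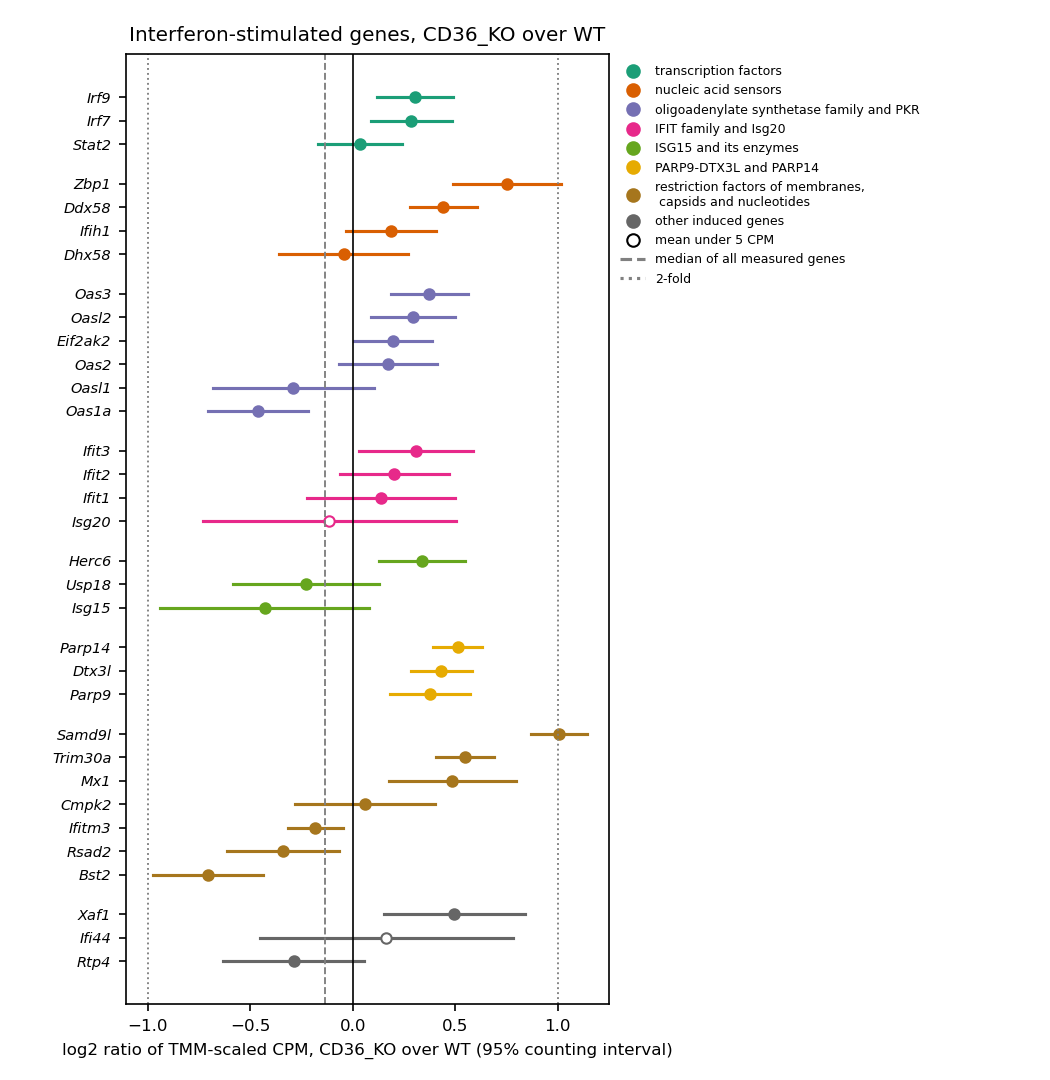
Log2 ratio of TMM-scaled CPM, CD36_KO over WT, for each of the 33 members with its exact 95% counting interval, grouped and coloured by role; open circles mark Isg20 and Ifi44, which were under 5 CPM. Only Samd9l reaches the 2-fold line; under pan-leukocyte scaling all points move left by 0.61 and only Samd9l and Zbp1 stay above 0.

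The transcription factors of the module had small ratios, each above the all-gene median. Stat2, which encodes the STAT protein particular to type I and type III interferon signalling, measured 42.3, 38.1, 36.4 and 38.7 CPM in the CD36_KO lanes, against 39.7, 39.6, 42.0 and 30.3 CPM in the WT lanes. The lanes of the libraries overlapped, and the log2 ratio was 0.03 (95% counting interval -0.17 to 0.24). Irf9, the DNA-binding partner in ISGF3, measured 52.0, 53.4, 55.8 and 50.9 CPM in the CD36_KO lanes, against 45.1, 51.5, 38.7 and 36.9 CPM in the WT lanes. Its highest WT lane reached into the CD36_KO range, and the ratio was 0.30 (0.12 to 0.49). Irf7, the factor that amplifies interferon-alpha production, measured 48.6, 48.0, 49.0 and 42.5 CPM in the CD36_KO lanes, against 39.2, 31.7, 38.0 and 45.4 CPM in the WT lanes. The fourth CD36_KO lane lay inside the WT range, and the ratio was 0.29 (0.09 to 0.48). Annotated exons of Irf7 overlap those of Phrf1 on the opposite strand and exons of Irf9 those of Rnf31 on the same strand, and whether the counts used strand is not given in the sources here.

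Among the nucleic acid sensors, Zbp1 and Ddx58 were the higher pair and Ifih1 and Dhx58 the lower pair. Zbp1, which recognises Z-form nucleic acid and can start necroptosis, measured 28.6, 36.4, 31.5 and 33.1 CPM in the CD36_KO lanes, against 19.8, 18.9, 19.0 and 19.4 CPM in the WT lanes. Every CD36_KO lane was above every WT lane, and the log2 ratio of 0.75 (0.49 to 1.02) was the second highest of the module. Ddx58, the gene of the RNA sensor RIG-I, measured 75.1, 72.0, 69.2 and 71.5 CPM in the CD36_KO lanes, against 48.3, 58.3, 53.0 and 52.0 CPM in the WT lanes. These lanes did not overlap either, and the ratio was 0.44 (0.28 to 0.61). Ifih1, which encodes the long-RNA sensor MDA5, had a ratio of 0.19 (-0.03 to 0.40), and Dhx58, which encodes their relative LGP2, one of -0.04 (-0.36 to 0.27), so both intervals took in no difference.

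The oligoadenylate synthetase family was split. Its enzymes make the messenger that switches on RNase L, and their genes stand in 2 groups on chromosome 5. Oas1a, at chr5:120896256-120907521, measured 21.5, 24.9, 22.3 and 25.1 CPM in the CD36_KO lanes, against 32.0, 33.0, 30.95 and 33.3 CPM in the WT lanes. All its CD36_KO lanes were below all its WT lanes, with a ratio of -0.46 (-0.71 to -0.22) that turned to 0.08 in TPM but stayed under the all-gene median there. Its neighbours Oas3 and Oas2 had ratios of 0.37 (0.19 to 0.56) and 0.17 (-0.07 to 0.41). Of the 31-base words in Oas1a transcripts 68.8% also occur in other genes, nearly all in Oas1g, so its counts depend on how reads were divided, and with Oas1g added the ratio was -0.52.

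The synthetase-like pair was split too. Oasl2 had a ratio of 0.29 (0.09 to 0.50) and its neighbour Oasl1 one of -0.29 (-0.68 to 0.10), with 109 counts in CD36_KO and 113 in WT. Eif2ak2, the gene of the kinase PKR that halts translation on sensing double-stranded RNA, had a ratio of 0.20 (0.01 to 0.38), with 547 counts in CD36_KO and 405 in WT.

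The Ifit genes, which are among the most inducible of the module and encode proteins that bind viral RNA ends, differed little between the libraries. They lie in 1 cluster on chromosome 19 together with Ifit3b and Ifit1bl1, and Ifit3, Ifit2 and Ifit1 had log2 ratios of 0.31 (0.03 to 0.59), 0.20 (-0.06 to 0.47) and 0.14 (-0.23 to 0.50). Ifit1 had 149 counts in CD36_KO and 115 in WT, and Ifit2 had 281 counts in CD36_KO and 207 in WT. All 3 lay above the all-gene median, and none reached 2-fold. Ifit3 shares 61.8% of its 31-base words with Ifit3b, which itself had a ratio of 0.01. Isg20, an RNA exonuclease gene, had only 49 counts in CD36_KO and 45 in WT, with a ratio of -0.12 (-0.73 to 0.50).

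Isg15, the gene of the ubiquitin-like modifier often used as a readout of interferon, was the weakest of the measured members by count. It measured 6.35, 7.18, 5.50 and 3.63 CPM in the CD36_KO lanes, against 7.49, 9.86, 4.65 and 8.56 CPM in the WT lanes, from 63 counts in CD36_KO and 72 in WT. The lanes overlapped widely and the ratio of -0.43 (-0.94 to 0.08) took in no difference; in TPM it was 0.16, which was 0.20 below the all-gene median on that scale. Usp18, which removes ISG15 and restrains the receptor, had a ratio of -0.23 (-0.58 to 0.13) with 134 counts in CD36_KO and 133 in WT. Herc6, the ligase gene for ISG15 in mice, stood higher at 0.34 (0.13 to 0.54), with 478 counts in CD36_KO and 321 in WT.

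The PARP-linked genes had like ratios, and each lay above the all-gene median both with TMM factors and in TPM. Parp14, an ADP-ribosyltransferase gene, had a ratio of 0.51 (0.39 to 0.63) with 1489 counts in CD36_KO and 886 in WT. Dtx3l and Parp9 encode partners of a ubiquitin ligase complex and lie head to head on chromosome 16, and their ratios were 0.43 (0.28 to 0.58) and 0.38 (0.18 to 0.57). The exons of Parp9 and Dtx3l overlap on opposite strands, so some of their reads cannot be told apart without strand.

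The restriction factors held both ends of the range. Samd9l, whose product restrains poxviruses and slows translation, measured 129.8, 137, 125 and 132 CPM in the CD36_KO lanes, against 72.5, 62.6, 64.2 and 62.0 CPM in the WT lanes. The lowest CD36_KO lane was far above the highest WT lane, and the log2 ratio was 1.00 (0.87 to 1.14). That value sits on the 2-fold line, and without the second CD36_KO lane it was 0.99 and no longer passed. Trim30a, a rodent TRIM gene whose product dampens Toll-like receptor signalling, measured 99.2, 99.7, 103 and 92.7 CPM in the CD36_KO lanes, against 69.2, 62.8, 69.4 and 68.8 CPM in the WT lanes. Its lanes did not overlap, with a ratio of 0.55 (0.40 to 0.69).

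Bst2 was the lowest member. It encodes tetherin, which holds budding virus at the membrane and is also a marker of plasmacytoid dendritic cells. Its lanes held 61, 43, 45 and 52 counts in CD36_KO, against 64, 70, 69 and 75 in WT, or 21.8, 15.6, 16.1 and 18.9 CPM in CD36_KO and 27.0, 30.0, 29.2 and 32.1 CPM in WT. All CD36_KO lanes were below all WT lanes, and the log2 ratio was -0.71 (-0.98 to -0.44). It was the only member below 0 on every scale used, at -0.10 in TPM. The other measured markers of those cells did not share its direction throughout: Siglech had a ratio of -0.22, Tcf4 one of 0.04, Pacsin1 one of 0.58 and Ccr9, which passed the 2-fold rule, one of 1.38. Their part in the result was not tested.

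Ifitm3, which encodes a membrane protein that blocks viral fusion in endosomes, measured 81.2, 85.4, 80.5 and 87.9 CPM in the CD36_KO lanes, against 89.0, 98.2, 95.1 and 98.0 CPM in the WT lanes. The lanes stood just apart and the ratio was -0.18 (-0.32 to -0.05), which turned to 0.01 with total counts and to 0.44 in TPM. Rsad2 and Cmpk2 are neighbours on chromosome 12 that make and feed the chain-terminating nucleotide of viperin. Rsad2 had a ratio of -0.34 (-0.62 to -0.07), which was 0.16 in TPM, and Cmpk2 one of 0.06 (-0.28 to 0.40). Mx1, a dynamin-like antiviral GTPase gene that is defective in C57BL/6 mice, had a ratio of 0.48 (0.18 to 0.80).

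The remaining members also divided. Xaf1, a gene tied to cell death, had a ratio of 0.49 (0.15 to 0.84). Rtp4, a receptor chaperone gene, had a ratio of -0.29 (-0.63 to 0.06). Ifi44, an induced gene of a cytoplasmic protein, had 54 counts in CD36_KO and 41 in WT.

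**Figure D3:**
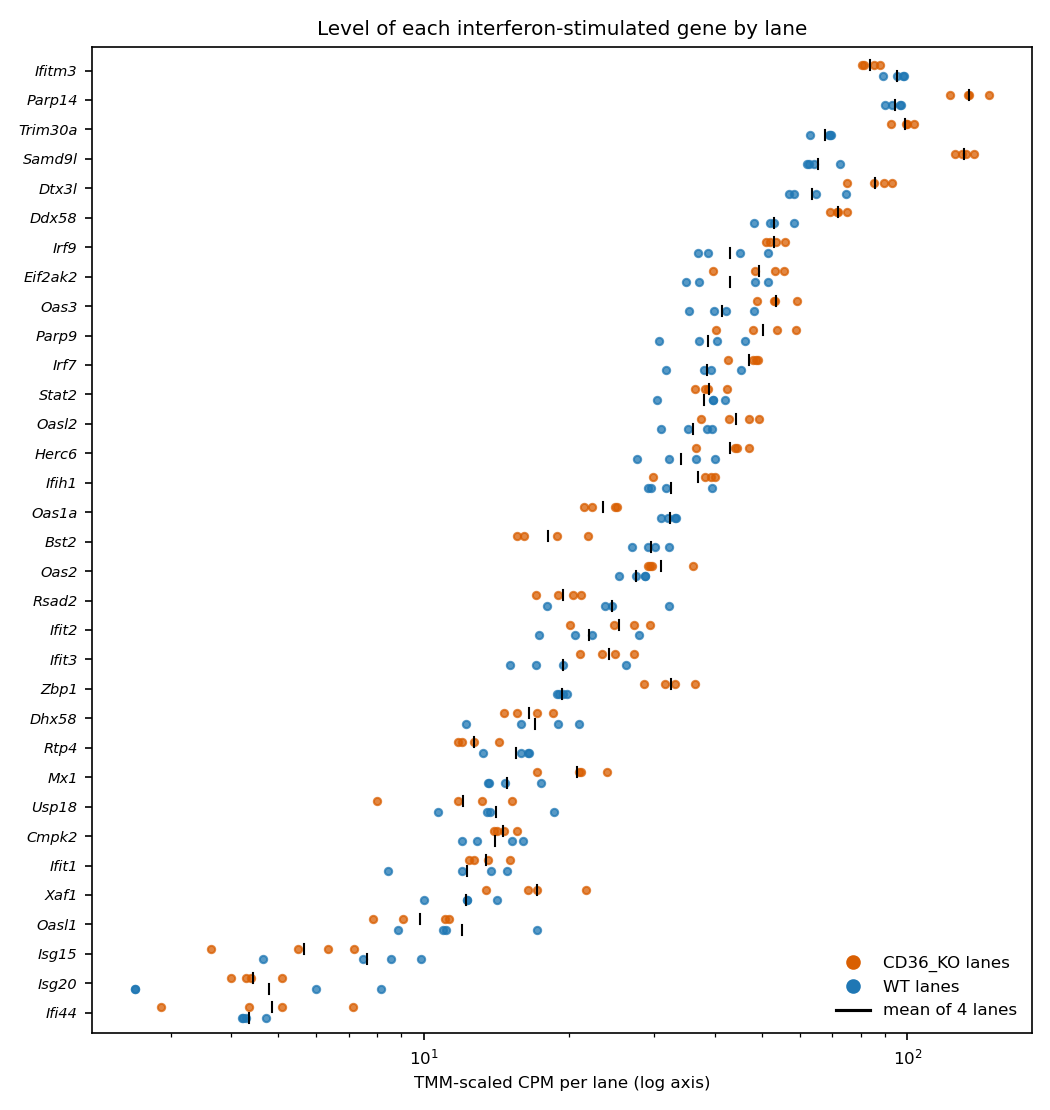
TMM-scaled CPM of each member in every lane on a log axis, CD36_KO lanes (orange) above WT lanes (blue) within each gene and bars at the mean of 4 lanes. The lanes of Samd9l, Zbp1 and Trim30a stand apart with CD36_KO higher and those of Bst2 and Oas1a with CD36_KO lower, while most other genes overlap. In TPM the ratio of Oas1a turns to 0.08 and that of Bst2 is -0.10.

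Per unit of length, Ifitm3 led the members in both libraries. It stood at 115 ± 4.18 TPM in CD36_KO and 85.0 ± 5.80 TPM in WT (SD, n = 4 lanes). It was followed in CD36_KO by Ddx58 at 34.4 ± 3.23 TPM, Trim30a at 27.8 ± 2.57 TPM, Bst2 at 20.2 ± 3.27 TPM and Samd9l at 19.2 ± 3.03 TPM. In WT these were 13.2 ± 2.99, 11.2 ± 2.97, 21.7 ± 2.00 and 6.28 ± 0.938 TPM, so that Bst2 ranked 2 there and Samd9l ranked 16 of 33. Bst2 and Samd9l in CD36_KO, and Ddx58 and Trim30a in WT, were neighbours in the order that differed by less than their SD over lanes, while Ifitm3 stood clear of all others in both.

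Summed over the 33 members the level was 502 ± 8.97 TPM in CD36_KO and 298 ± 13.4 TPM in WT (SD, n = 4 lanes). Mean TPM was higher in CD36_KO for 32 of the 33 members, all but Bst2, and for 75.8% of all measured genes. The order of members was alike, with a Spearman rho of 0.883 over 33 genes, given as a description because the values share their libraries. Isg15 ranked 25 in CD36_KO and 14 in WT, and Ifi44 came last in both libraries at 1.28 ± 0.706 TPM in CD36_KO and 0.860 ± 0.134 TPM in WT.

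In 22 members with transcripts both of protein-coding and of other biotypes, the other biotypes made up more of the counts in CD36_KO. Over these 22 members pooled, protein-coding transcripts held 75.7% of counts in CD36_KO and 81.7% in WT. The remaining members, among them Samd9l and Ifitm3, were not pooled. The lanes ran from 74.4% to 76.9% in CD36_KO and from 81.0% to 82.6% in WT, without overlap. The 9058 measured genes with both kinds of transcript moved the same way by less, with 81.9% in CD36_KO and 85.3% in WT. Of 22 members with both kinds of transcript, 17 had the lower coding share in CD36_KO, 4 the higher and Bst2 an equal one, while 63.0% of 9058 genes with both kinds had the lower share in CD36_KO.

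The widest difference was that of Ddx58, with 51.5% of counts in coding transcripts in CD36_KO (exact 95% interval 48.0% to 55.0%) and 67.6% in WT (63.2% to 71.6%). Its main coding transcript, Ddx58-201, had 391 counts in CD36_KO and 336 in WT, while the noncoding Ddx58-205 had 167 counts in CD36_KO and 70.7 in WT. On coding transcripts alone, with TMM factors refitted to those counts, the log2 ratio of Ddx58 was 0.21. The all-gene median on that scale was -0.06. Zbp1 had a coding share of 64.8% in CD36_KO and 78.03% in WT, and its retained-intron transcript Zbp1-203 had 126 counts in CD36_KO and 39.9 in WT. Irf7 had 55.6% in CD36_KO and 68.2% in WT, with 80.6 counts of the retained-intron transcript Irf7-213 in CD36_KO and 22.2 in WT. For Mx1 the transcript annotated as a polymorphic pseudogene, Mx1-202, had 48.8 counts in CD36_KO and 4.47 in WT. Cmpk2 had the higher share in CD36_KO, at 91.99% (86.7% to 95.7%) against 87.0% (80.2% to 92.3%) in WT. So did Oasl1, at 82.7% (74.1% to 89.2%) in CD36_KO and 78.2% (69.1% to 85.1%) in WT. The intervals of the libraries overlapped for both genes. The division of reads among transcripts of 1 gene is an estimate and varied between lanes, and the intervals cover counting error only.

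**Figure D4:**
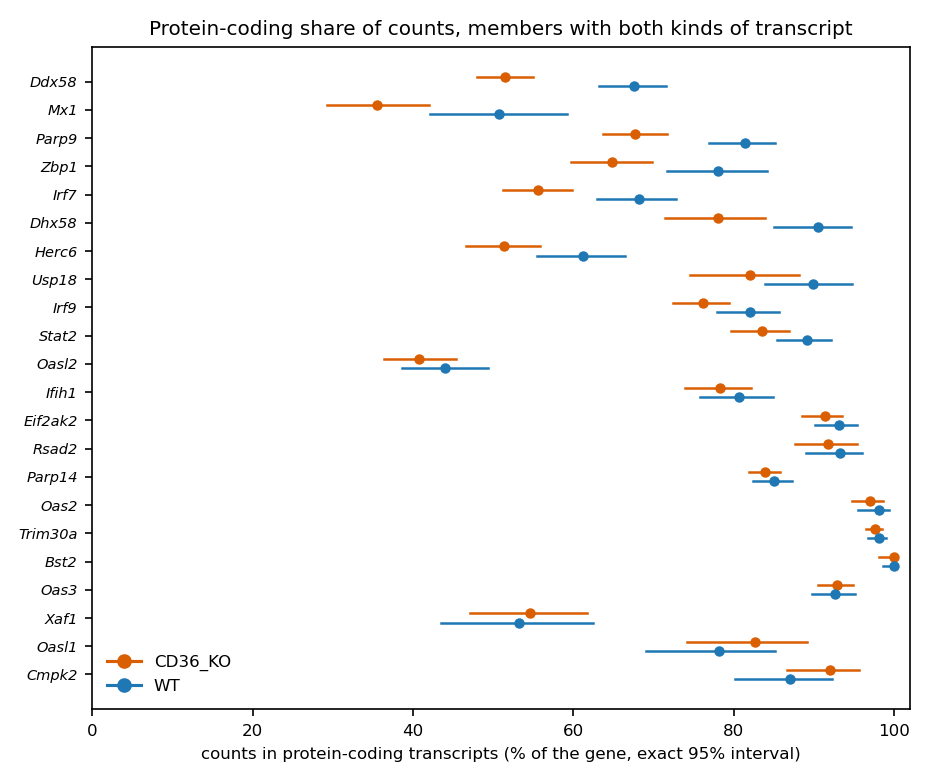
Share of a gene's counts in protein-coding transcripts, in percent, for the 22 members with both kinds of transcript, CD36_KO (orange) above WT (blue), with exact 95% binomial intervals. From Ddx58 through Dhx58 the CD36_KO share is lower by over 12 points. For Cmpk2 and Oasl1 at the bottom it is higher, with overlapping intervals.

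The genes that make, receive and restrain the signal were examined from lists of 116 further pathway genes, of which 92 were measured. Type I interferon RNA was at or near the detection floor. None of 18 type I interferon genes was measured, Ifnb1 and 13 others had 0 counts in both libraries, and Ifnk had the most, with 14 counts in CD36_KO and 11 in WT. A count of 0 allows up to 3 counts per library, so such RNA was not detectable at this depth.

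The receptor genes had ratios near 0, and Jak1 and Tyk2 had ratios above 0. All 4 genes lay above the all-gene median with TMM factors and in TPM, and none of them passed the 2-fold rule. Ifnar1 had a log2 ratio of 0.01 (-0.12 to 0.14) and Ifnar2 one of -0.03 (-0.22 to 0.17). Jak1, whose kinase also serves many cytokine receptors, had 1078, 1068, 1090 and 1073 counts in the CD36_KO lanes, against 528, 488, 510 and 502 in the WT lanes. Its ratio was 0.85 (0.77 to 0.93), and that of Tyk2 was 0.25 (0.08 to 0.43). The 4 CD36_KO lanes of Jak1 stood clear of its WT lanes, while with pan-leukocyte scaling, which moves every ratio down by 0.61, those of Tyk2 and both receptor genes were below 0.

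Few genes of the other parts of the pathway passed the 2-fold rule, which few genes pass in general (6.50% higher and 10.8% lower), and the all-gene median was -0.13. Of 16 measured sensors and adaptors upstream of interferon, 0 were called higher and 1 lower, with a median of -0.02. The lower one was Tlr3, the endosomal receptor for double-stranded RNA, at -1.03 (-1.46 to -0.60) with 74 counts in CD36_KO and 128 in WT. This call was lost with total counts, in TPM, at a limit of 20 CPM and on protein-coding transcripts, and on leaving out CD36_KO lane 2 or 4 or WT lane 2 or 4. The highest was the kinase gene Ikbke at 0.86. Among 8 genes of other IRFs and of IRF2-binding proteins (Irf2bp1, Irf2bp2 and Irf2bpl) the median was 0.06 and none was called. They ran from Irf2bp1 at -0.64 to Irf1, itself induced by interferon-gamma, at 0.92. Among 10 brakes on the pathway the median was 0.02 and none was called, from Socs3 at -0.73 to Socs1 at 0.42.

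Interferon-stimulated genes outside the 33 contained larger differences. Their list was chosen with earlier results of these data known, so its counts are a description only. Of 53 measured ones in that list of 58, 16 were at least 2-fold higher in CD36_KO and 0 lower, beside the 6.50% and 10.8% of all genes, and the median was 0.28. With pan-leukocyte scaling 3 of the 92 genes of all further lists together were called higher and 9 lower, beside 302 higher and 4066 lower of 12177 genes. The highest was Ifitm1, a relative of Ifitm3 in the same chromosome 7 cluster, with 49, 48, 53 and 59 counts in the CD36_KO lanes, against 11, 3, 7 and 10 in the WT lanes. The lanes stood far apart, and the ratio was 2.51 (1.97 to 3.11), beside -0.56 (-0.75 to -0.38) for Ifitm2, which lies nearby. Other genes hold 55.5% of the 31-base words of Ifitm2 and 11.6% of those of Ifitm1, so the Ifitm2 count is uncertain.

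The Ifi200 genes, a chromosome 1 family of DNA-binding proteins, made up 5 of the 16. Ifi213 had a ratio of 1.74 (1.53 to 1.95), with 935 counts in CD36_KO and 237 in WT, followed by Ifi208 at 1.63, Ifi209 at 1.59, Mndal at 1.48. Ifi203 had 1641 counts in CD36_KO and 491 in WT. Other family members in the list were not called, with Ifi204 at -0.05, Ifi205 at -0.06, Ifi211 at -0.28 and Ifi207 at -0.32. These genes share sequence, with 21.9% to 47.2% of 31-base words of the 5 called ones found in other genes, and the Mndal locus overlaps those of Ifi203 and Ifi211 on the same strand, so their separate counts are uncertain.

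The rest of the 16 came from several families. Epsti1, which shares no 31-base word with another gene, had 216, 231, 242 and 209 counts in the CD36_KO lanes, against 72, 72, 68 and 65 in the WT lanes, and a ratio of 1.46 (1.26 to 1.66). The nuclear body genes Sp100 and Sp110 had ratios of 1.26 and 1.16, and the Schlafen genes Slfn1 and Slfn8, of a family tied to T cell growth, had 1.19 and 1.014. Trim12c, Trim12a and Trim34a, neighbours of Trim30a, had ratios of 1.48, 1.45 and 1.04. Of their 31-base words 68.5% in Trim34a, 55.5% in Sp110 and 48.1% in Trim12c also occur in other genes, so these counts are uncertain too. The share was lower in Trim12a (16.05%) and Sp100 (9.198%). Ifit1bl1 had a ratio of 1.395, against 0.14 for its relative Ifit1, and Oas1b one of 1.02, against -0.46 for Oas1a. The lowest of the list was Lgals3bp at -0.90.

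**Figure D5:**
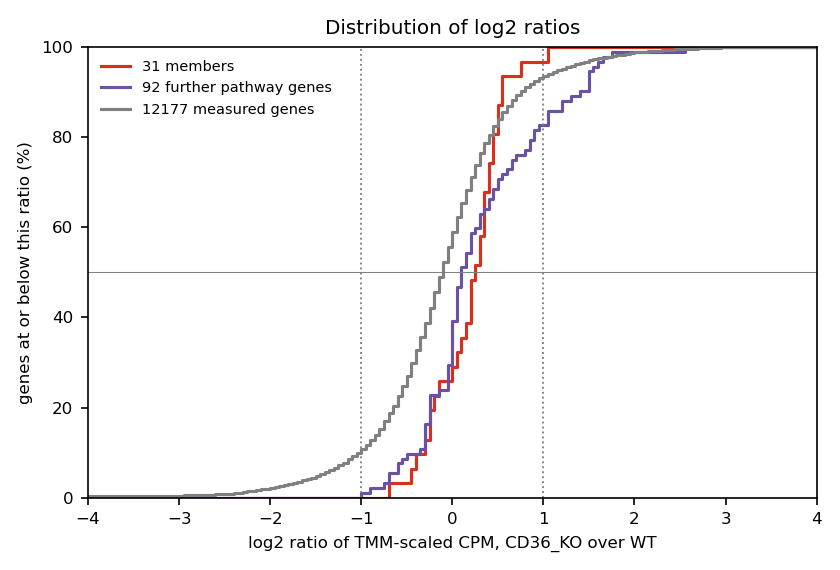
Share of genes at or below each log2 ratio of TMM-scaled CPM, CD36_KO over WT, for the 31 measured members (red), the 92 further pathway genes (purple) and all 12177 measured genes (grey). The curve of the members crosses 50% right of that of all genes, at 0.20 against -0.13, and ends at 1.00, while the further pathway genes reach 2.51.

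Cells outside the CD8 lineage can also express these genes, and markers of 12 cell types were read in the same libraries. All 7 B cell, all 5 measured neutrophil and all 5 red blood cell markers were at least 2-fold higher in CD36_KO. So were 7 of 8 hepatocyte markers, all but Trf, and both measured NK cell markers, Klrd1 and Eomes. The other NK cell markers, Ncr1, Klrb1c and Klra8, were under 5 CPM. Whether Klrd1 and Eomes came from NK cells or from the sorted CD8 T cells was not tested. The hepatocyte markers summed to 1066 to 1096 CPM in CD36_KO lanes and 426 to 461 CPM in WT lanes. Trf alone, at a ratio of -0.02, held 319 CPM in CD36_KO and 324 CPM in WT, and the median ratio of the hepatocyte markers was 2.70. The B cell markers summed to 206 to 223 CPM in CD36_KO lanes and 52.0 to 60.9 CPM in WT lanes. Macrophage and monocyte markers summed to 4107 to 4148 CPM in CD36_KO lanes and 5621 to 5685 CPM in WT lanes, with 1 of 14 higher and 4 lower (median -0.39). Of 5 measured plasmacytoid dendritic cell markers 1 was higher, with 149 to 165 CPM in CD36_KO lanes and 118 to 149.5 CPM in WT lanes. Of 6 dendritic cell markers 1 was higher, of 6 fibroblast markers 5 were lower, and of 5 endothelial markers none was called. No marker was at 0 in either library.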

How the data were processed

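Each deposited file gives, for every transcript of 1 lane, estimated counts that need not be whole and TPM. Per the submitters' processing notes the authors used kallisto and DESeq2 with GRCm38.p6, with no versions given. The deposited TPM values were scaled by the authors' tool for effective length and lane total. Of the transcript values of a lane, zeros included, 33.8% to 35.4% of the estimated counts were not exactly whole. Counts of 142351 transcripts were summed to 55335 genes by the identifiers in the files, summed over the 4 lanes of a library and rounded to whole numbers. TMM factors (edgeR 4.0.16, R 4.3.3) were 1.071 for CD36_KO and 0.934 for WT, and edgeR made no test. Intervals are exact Clopper-Pearson 95% counting intervals of the split of a gene's counts. They cover counting error only, since PCR copies were not separated by molecular identifiers. A gene was called when its ratio reached 2-fold and the interval excluded no difference. Steps were tested on simulated data.

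Coordinates are from GENCODE M21 on GRCm38, which held 99.67% of the gene identifiers, and promoters from RefSeq on GRCm38.p6, which had 25 of the 33 members. The members and lists were chosen with earlier results of these data known. Lane values are given for Stat2, Irf9 and Irf7, for members called, for the 3 highest and 3 lowest measured ratios and for the 4 most abundant members by mean TPM. Of each further list the called genes, the highest and lowest measured and the receptor genes are named. Ifi204, Ifi205, Ifi207, Ifi211, Ifitm2, Ifit3b, Irf2bp2, Irf2bpl and transcripts were named after their values were seen. DESeq2 1.42.0 size factors served only as an alternative scaling. One gene of the further lists is not reported here.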

Additional observations from a re-analysis of the deposited data

Results flagged for a closer look

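Lanes of a library were compared within each member, and in 4 of 66 sets of 4 lanes 1 lane lay far from the other lanes. Chance gives such a lane in about 1 in 20 sets. Irf7 in the fourth CD36_KO lane was low at 42.51 CPM, against 47.97 to 49.0 CPM in the other CD36_KO lanes. Oas2 in the second CD36_KO lane was high at 35.98 CPM, against 29.07 to 29.69 CPM in the others. Trim30a in the second WT lane was low at 62.85 CPM, against 68.84 to 69.38 CPM in the others. Ifi44 in the fourth WT lane was high at 4.712 CPM, against 4.218 to 4.288 CPM in the others.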

How the results depend on the processing

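No paired analysis was possible because lane numbers mark technical lanes of 1 library per genotype and no test was run. The members' median of 0.20 was 0.76 as log2(TPM + 1) and -0.41 with pan-leukocyte scaling, and 0.18 to 0.31 with any 1 lane left out. The single member called higher was 6 in TPM, 0 with pan-leukocyte scaling and 2 at 1.5-fold, and 0 to 1 with a lane left out, where the loss came without the second CD36_KO lane. The 0 called lower was 3 with pan-leukocyte scaling (Bst2, Isg15 and Oas1a) and 1 at 1.5-fold (Bst2), and 0 with any lane left out. For the further pathway genes the 16 called higher were 26 in TPM, 3 with pan-leukocyte scaling, 25 at 1.5-fold and 14 to 17 with a lane left out. The 1 called lower was 0 with total counts, in TPM, at a mean of 20 CPM or on protein-coding transcripts, 9 with pan-leukocyte scaling, 7 at 1.5-fold and 0 to 1 with a lane left out. That call, Tlr3, was lost without CD36_KO lane 2 or 4 and without WT lane 2 or 4. Their median of 0.09 was 0.64 in TPM, -0.52 with pan-leukocyte scaling, 0.29 both with total counts and on protein-coding transcripts, and 0.07 to 0.18 with a lane left out. Over all genes the calls higher and lower were 792 and 1314 with TMM and 1114 and 940 with total counts. They were 1501 and 329 in TPM, 302 and 4066 with pan-leukocyte scaling, and 1643 and 2826 of 12177 genes at 1.5-fold. At a mean of 20 CPM they were 344 and 679 of 6772 genes, and on protein-coding transcripts 1031 and 1224 of 11777. DESeq2 size factors, no filter on low counts and summing near-identical genes kept each count of members and further pathway genes within 1.5-fold. With no filter on low counts 2381 and 2471 of all 55335 genes were called higher and lower. Stat2, at 0.03, ran from -0.00 to 0.15 with a lane left out. The cause of these differences was not tested beyond the shift of all genes that each scaling carries. Depth limits Isg15, Isg20, Ifi44 and the type I interferon genes, whose counts are few.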
